A study of Mus musculus with 18 samples.

Results

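Interleukin-4 (IL-4) and interleukin-13 (IL-13) signal through a small set of shared proteins, and the genes of 9 of them are described here in microglia and macrophages from the injured spinal cord. They were the receptor chains Il4ra, Il13ra1, Il13ra2 and Il2rg, the Janus kinases Jak1, Jak3 and Tyk2, the transcription factor Stat6 and the adaptor Irs2. They were taken by gene symbol from the 53465 gene rows of the count table, and all 9 had a row. Mice of the C57BL/6J strain, 8 to 10 weeks old and female, received a contusion of the thoracic spinal cord (spinal cord injury, SCI). At 48 h after SCI, recombinant IL-13 (rIL-13, 100 ng), recombinant IL-4 (rIL-4, 100 ng) or PBS was injected into the lesion. The cords were taken 24 h later and each gave a microglia and a macrophage library, microglia sorted as cells with low CD45 and macrophages as cells with high CD45, both positive for CD11b and F4/80. With 3 mice for each injection there were 9 mice and 18 libraries, 3 in each of 6 groups. No uninjured mice were among these libraries, so every group shares the injury and an injection.

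IL-4 and IL-13 are the type 2 cytokines that drive alternative activation of macrophages. IL-4 first binds IL-4Rα (Il4ra), which then pairs either with the common gamma chain (Il2rg) to form the type I receptor or with IL-13Rα1 (Il13ra1) to form the type II receptor. IL-13 binds IL-13Rα1 first and uses the type II receptor, so a cell without this chain can answer IL-4 but not IL-13. IL-13Rα2 (Il13ra2) binds IL-13 tightly and is best known as a decoy. JAK1 is bound to IL-4Rα, JAK3 to the common gamma chain and TYK2 to IL-13Rα1. The activated kinases phosphorylate the receptor, STAT6 docks, is phosphorylated and moves to the nucleus, and IRS2 couples the type I receptor in particular to PI3K.

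The libraries held between 35961305 and 45849829 counts. Levels are given as CPM, counts scaled to the size of the library and normalized for composition over all 18 libraries, and as CPM per kilobase of exon where genes are compared with each other. The summed level of 8 microglia markers was 2383 to 9786 CPM in microglia libraries and 465 to 3736 CPM in macrophage libraries, and that of 7 markers of monocyte-derived macrophages was 52.7 to 248 and 540 to 1934 CPM. Microglia libraries also held 217 to 8076 CPM of 8 fibroblast and pericyte markers and 658 to 2284 CPM of 5 endothelial markers. In macrophage libraries these sums were 0.282 to 9.64 and 17.4 to 426 CPM. T, B and NK cell markers, which matter here because lymphocytes use Il2rg and Jak3, summed to at most 0.946 CPM in any library.

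The promoters of Il13ra1 and Il13ra2 are shown because these genes encode the 2 chains that bind IL-13 itself, and only the first had reads in every library. The stretches are the 250 bases before the transcription start in RefSeq's annotation of GRCm38.p6, read 5′ to 3′ on the gene's strand, with each CG dinucleotide in capitals. That of Il13ra1 lies at chrX:36111858-36112107 on the plus strand and that of Il13ra2 at chrX:147429193-147429442 on the minus strand.
Il13ra1: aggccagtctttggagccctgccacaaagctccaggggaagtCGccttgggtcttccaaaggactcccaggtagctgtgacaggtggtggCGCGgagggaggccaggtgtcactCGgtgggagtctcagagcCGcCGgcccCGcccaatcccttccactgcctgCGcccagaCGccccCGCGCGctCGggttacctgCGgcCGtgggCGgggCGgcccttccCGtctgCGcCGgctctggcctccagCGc
Il13ra2: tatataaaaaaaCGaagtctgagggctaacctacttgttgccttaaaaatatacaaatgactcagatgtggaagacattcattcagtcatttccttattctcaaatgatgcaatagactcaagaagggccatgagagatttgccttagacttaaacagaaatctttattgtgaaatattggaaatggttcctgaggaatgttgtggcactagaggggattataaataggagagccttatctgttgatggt
The Il13ra1 stretch held 21 CG dinucleotides and 70.8% G and C, and 83.7% of all promoters had fewer CG. The Il13ra2 stretch held 1 CG and 36% G and C, and only 7.87% of promoters had fewer CG, where the median was 6. The other 8 members, Il13ra1 among them, held between 3 and 34. The windows of 300 bases around the start, which RefSeq gave for all 9 members, were searched for the letters TTCNNNNGAA, the spacing that STAT6 prefers, and for TTCNNNGAA, which other STAT proteins share. Both read the same on either strand. They were found in 0 of the 9 members' windows, while 6.95% and 8.3% of the 32851 windows of this length held them. This says only that these letters are not in these windows.

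The 9 genes were expressed at very different levels. Il4ra (ENSMUSG00000030748.9, chromosome 7 from 125552120 to 125579474, plus strand, GRCm38) had the highest level per kilobase in both cell types, with a median of 104.7 CPM per kb (55.1 to 276) over the 9 macrophage libraries and 34.3 (19.9 to 72.1) over the 9 microglia libraries. Stat6 (ENSMUSG00000002147.18, chromosome 10 from 127642986 to 127660957, plus strand) came next, with 63.2 CPM per kb (55.6 to 73.7) in macrophages and 32.8 (27.9 to 46.8) in microglia. Il2rg (ENSMUSG00000031304.18, chromosome X from 101264378 to 101268255, minus strand) had 43.5 (31.8 to 56.9) and 28.7 CPM per kb (19.5 to 39.4). Jak1 (ENSMUSG00000028530.14, chromosome 4 from 101152367 to 101265282, minus strand) had 36.9 CPM per kb in macrophages and 29.6 in microglia, where its median was above that of Il2rg. Il13ra1 (ENSMUSG00000017057.9, chromosome X from 36112110 to 36171259, plus strand) had 28.0 and 23.7 CPM per kb. In microglia the ranges of Il4ra, Stat6, Jak1, Il2rg and Il13ra1 overlapped, so that their order there lay within the spread between libraries. Their order in microglia also depended on the length used. With the longest coding transcript in place of all exons, the median was 43.6 CPM per kb for Jak1, 41.1 for Il2rg and 39.2 for Il4ra. In macrophages Stat6 lay above Jak1 and Il13ra1 without overlap.

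Jak3 (ENSMUSG00000031805.17, chromosome 8 from 71676296 to 71690575, plus strand) had a median of 10.3 CPM per kb in microglia and 8.63 in macrophages. Tyk2 (ENSMUSG00000032175.11, chromosome 9 from 21104068 to 21131243, minus strand) had 6.70 and 9.21, and the ranges of these 2 kinases overlapped in both cell types. Irs2 (ENSMUSG00000038894.7, chromosome 8 from 10984681 to 11008458, minus strand) had 0.524 CPM per kb in microglia and 1.93 in macrophages, below the lowest library of either kinase. Il13ra2 (ENSMUSG00000031289.10, chromosome X from 147383476 to 147429192, minus strand) had no count in 13 of the 18 libraries. The exons of Il2rg share 30.5% of their length with those of Gm20489, and those of Il4ra share 9.51% with the antisense gene Gm44876, so that reads there may have been divided between the genes. The highest count in any library was 2 for Gm20489 and 0 for Gm44876.

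**Figure D1:**
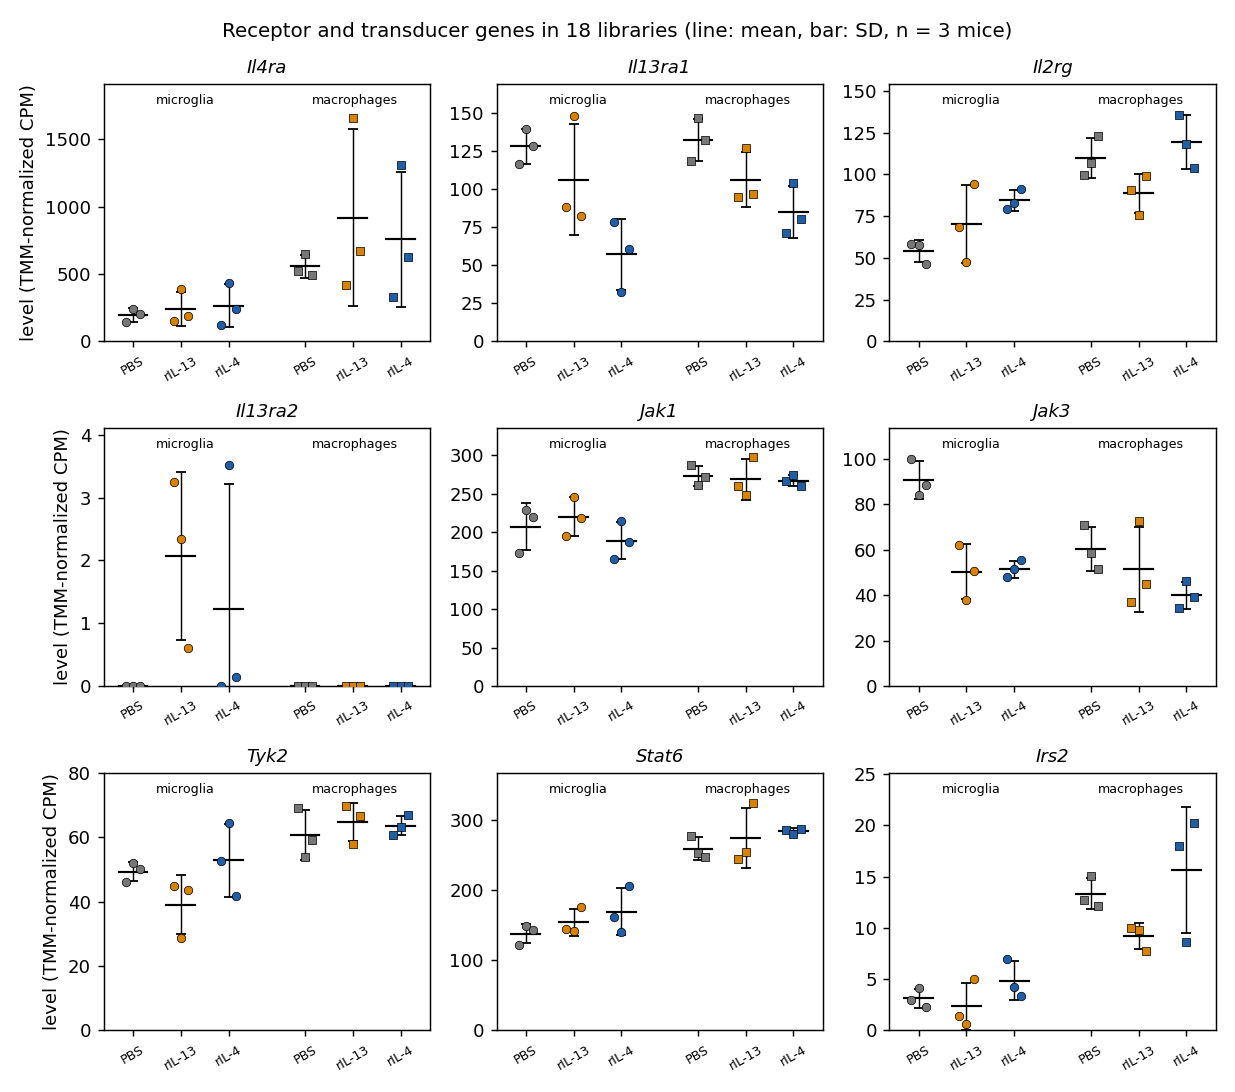
Level of each of the 9 genes (y axis, CPM) in every library, with microglia on the left and macrophages on the right of each panel, by injection. Points are mice, lines are means and bars are SD of 3 mice. Il13ra1 steps down from PBS to rIL-4 in both cell types, Il13ra2 is detected only in cytokine-injected microglia, and the wide bars of Il4ra come from mice 6 and 9.

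The first question was whether the injected cytokines changed the RNA of their own receptors and transducers. Counts of called members are read against the share of all genes called in the same comparison. In microglia, edgeR's quasi-likelihood test called 0 of 9 members between rIL-4 and PBS at an adjusted p under 0.05, 0 of 9 between rIL-13 and PBS and 0 of 9 between rIL-4 and rIL-13. In the same comparisons 2.22%, 0.366% and 0.0385% of all genes tested were called. Without adjustment, 3, 1 and 1 of the 8 members other than Il13ra2 had p under 0.05, where 16.4%, 7.76% and 11.4% of all genes did. DESeq2's Wald test called 2, 1 and 0 of these 8 and 7.81%, 2.07% and 3.58% of all genes. Il13ra2, which passed the filter on low counts only through the cytokine-injected microglia, is left out of these counts and described by its reads. In macrophages 1 of the 8 members that passed the filter on low counts was called between rIL-4 and PBS, or 1 in 8, where 14% of all genes were called. Between rIL-13 and PBS 0 of 8 were called (4.19% of all genes) and between rIL-4 and rIL-13 0 of 8 (0.25%). Without adjustment 2, 0 and 2 members had p under 0.05 in these macrophage comparisons, where 27.9%, 17.9% and 11.1% of all genes did. DESeq2 called 1, 0 and 0 members and 19.6%, 8.55% and 3.09% of all genes. Over the 8 members other than Il13ra2, the median log2 fold change was 0.22 for rIL-4 against PBS in microglia (-0.06 over all genes) and 0.09 in macrophages (0.02 over all genes). For rIL-13 against PBS it was -0.087 in microglia (-0.0008 over all genes) and -0.122 in macrophages (0.005 over all genes). The comparisons of rIL-4 and of rIL-13 with PBS share the PBS libraries.

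Il13ra1, the chain that IL-13 binds first and that makes the type II receptor, was the member called. In macrophages it was at 118, 146 and 132 CPM with PBS, at 94.7, 127 and 96.8 CPM with rIL-13 and at 71.0, 104 and 80.3 CPM with rIL-4. All 3 rIL-4 libraries lay below all 3 PBS libraries, and the rIL-13 libraries lay between and overlapped both. The mean fell from 132 ± 14.0 CPM (SD, n = 3) with PBS to 85.1 ± 17.0 CPM with rIL-4, a log2 fold change of -0.64 ± 0.17 (SE) and an adjusted p of 0.0329. For rIL-13 against PBS the log2 fold change was -0.31 ± 0.17 with an adjusted p of 0.392. Other markers moved with the injections in these libraries. Microglia markers summed to 2618 to 3736 CPM in PBS macrophages and 465 to 849 CPM in rIL-4 macrophages, and endothelial markers to 17.4 to 19.6 and 196 to 426 CPM. Their part in the Il13ra1 difference was not tested. The rIL-4 call was not kept with all 18 libraries in a single model (adjusted p = 0.236) or without any 1 of mice 1, 2, 3, 7, 8 and 10, where the adjusted p was 0.0537 to 0.121.

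In microglia Il13ra1 was at 116, 139 and 129 CPM with PBS and at 78.6, 32.3 and 61.0 CPM with rIL-4, again without overlap. The mean was 128 ± 11.5 CPM (SD, n = 3) with PBS and 57.3 ± 23.3 CPM with rIL-4. This log2 difference of -1.14 ± 0.32 (SE) did not pass the threshold (adjusted p = 0.121), and the spread between rIL-4 mice was wide. DESeq2 called it, with an adjusted p of 0.0140. The log2 response to rIL-4 was 0.52 ± 0.39 lower in microglia than in macrophages. In edgeR's test of the interaction of cell type and injection this had an adjusted p of 0.690. With rIL-13 the microglia of mice 5 and 7 were at 88.0 and 82.6 CPM, below every PBS library, while those of mouse 6 were at 148 CPM, above every PBS library. All 3 rIL-4 microglia libraries lay below all 3 rIL-13 libraries. The log2 difference was -0.27 ± 0.32 (adjusted p above 0.99) between rIL-13 and PBS and -0.87 ± 0.32 (adjusted p = 0.388) between rIL-4 and rIL-13. Mouse 6's microglia also held the most fibroblast and pericyte marker RNA, 8076 CPM, where the other 8 microglia libraries held 217 to 3548. These markers were at 2365 to 3548 CPM in PBS microglia and at 217 to 1547 CPM in rIL-4 microglia, and their part in the microglial Il13ra1 difference was not tested. In macrophages they summed to at most 9.64 CPM.

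Il13ra2, the decoy chain for IL-13, went from no counts to detectable counts in microglia. There were 0 counts in all 3 PBS microglia libraries and in all 9 macrophage libraries. With rIL-13 the microglia held 139, 112 and 31 counts, or 3.25, 2.35 and 0.608 CPM. With rIL-4 they held 0, 184 and 5 counts, or 0, 3.52 and 0.136 CPM. Thus every rIL-13 microglia library had reads of this gene, but among rIL-4 microglia nearly all of them came from mouse 9. Taking 3 counts as the limit that a library with no count allows, and averaging over the group's libraries, Il13ra2 was at least 30-fold higher in rIL-13 than in PBS microglia and at least 17.7-fold higher in rIL-4 than in PBS microglia. The rIL-4 bound rests on mouse 9, without which the mean was 0.0679 CPM, under the PBS limit of 0.0690 CPM, and no bound remained. The rIL-13 bound was 21.4 to 40.6 without any 1 of its mice. Il13ra2 was at least 22.8-fold higher in rIL-13 microglia than in rIL-13 macrophages. These bounds cover counting error only, and amplified SMART-seq2 reads without molecular identifiers are not independent molecules. Against PBS neither difference passed the adjusted threshold (adjusted p = 0.429 for rIL-13 and 0.181 for rIL-4) in edgeR's test, while DESeq2 called both (adjusted p = 0.0112 and 0.0104). The gene passed the filter on low counts only through the cytokine-injected microglia, so no test between groups is given as support, and the counts above are the result. Fibroblast and pericyte markers summed to 2365 to 3548 CPM in PBS microglia, 1265 to 8076 CPM in rIL-13 microglia and 217 to 1547 CPM in rIL-4 microglia. The 8076 CPM belonged to mouse 6, with 112 counts of Il13ra2. Mouse 5, with 139 counts, held 1854 CPM of these markers, and mouse 7, with 31 counts, held 1265 CPM. Endothelial markers were at 658 to 1466 CPM with PBS, 1315 to 2284 CPM with rIL-13 and 1662 to 2225 CPM with rIL-4. Mouse 7, with 31 counts of Il13ra2, held the 2284 CPM, and mouse 9, with 184 counts, held the 2225 CPM. The part of such RNA in the Il13ra2 counts was not tested.

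Il2rg, the common gamma chain that makes the type I receptor and is shared with the receptors for IL-2, IL-7, IL-15 and IL-21, leaned the other way in microglia. It was at 58.4, 57.6 and 46.5 CPM with PBS and at 79.5, 82.8 and 91.5 CPM with rIL-4, without overlap. The log2 difference was 0.67 ± 0.24 (SE), with an unadjusted p of 0.0191 and an adjusted p of 0.202. The 7 markers of monocyte-derived macrophages summed to 52.7 to 105 CPM in PBS microglia and 123 to 248 CPM in rIL-4 microglia, also without overlap, and to 95.8 to 117 CPM in rIL-13 microglia. Their part in the Il2rg difference was not tested. With rIL-13 the 3 microglia libraries spread from 47.5 to 94.1 CPM and overlapped both other groups. In macrophages Il2rg was at 99.7 to 123 CPM with PBS, at 75.8 to 99.2 CPM with rIL-13 and at 104 to 136 CPM with rIL-4. There the log2 difference was 0.12 ± 0.16 between rIL-4 and PBS and 0.42 ± 0.16 between rIL-4 and rIL-13, with adjusted p of 0.675 and 0.349. All 3 rIL-13 macrophage libraries lay just below all 3 PBS libraries (adjusted p = 0.364).

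Of the kinases, Jak3, which signals from the common gamma chain, was at 99.9, 83.9 and 88.3 CPM in PBS microglia. It was at 62.2, 37.8 and 50.8 CPM in rIL-13 microglia and at 47.8, 51.4 and 55.3 CPM after rIL-4. All 6 cytokine libraries lay below all 3 PBS libraries. The log2 difference was -0.84 ± 0.20 (SE) for rIL-13 (unadjusted p = 0.00177, adjusted p = 0.194) and -0.79 ± 0.20 for rIL-4 (unadjusted p = 0.00260, adjusted p = 0.0801). DESeq2 called both, with adjusted p of 0.00505 and 0.00429. In macrophages Jak3 was at 70.9, 58.7 and 51.5 CPM with PBS and at 34.5, 46.2 and 39.2 CPM with rIL-4, also without overlap, with a log2 difference of -0.60 ± 0.24 and an adjusted p of 0.126. The rIL-13 macrophages of mouse 6 were at 72.6 CPM and those of mice 5 and 7 at 37.0 and 44.7 CPM. Microglia marker RNA was at 5455 to 9786 CPM in PBS microglia, 2547 to 6562 CPM in rIL-13 microglia and 2383 to 4084 CPM in rIL-4 microglia. The rIL-13 range overlapped that of PBS and the rIL-4 range did not. The part of such RNA in the Jak3 levels was not tested.

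Jak1, which is bound to IL-4Rα and takes part in both receptor types, moved least. Its group means were 189 to 220 CPM in microglia and 267 to 273 CPM in macrophages, and its coefficient of variation over the 9 macrophage libraries was 5.73%, the lowest of the 8 members detected there. Tyk2, the kinase of IL-13Rα1, had group means of 39.1 to 52.9 CPM in microglia and 60.7 to 64.7 CPM in macrophages. The rIL-13 microglia libraries of Tyk2 lay at 28.6 to 44.9 CPM, just below all 3 PBS libraries. Neither kinase was called between any pair of injections.

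Stat6, on which both receptors converge, was also nearly flat. In macrophages it was at 278, 253 and 248 CPM with PBS and at 286, 280 and 288 CPM with rIL-4. These groups did not overlap, but the log2 difference was only 0.13 ± 0.14 (SE), with an adjusted p of 0.591. In microglia the Stat6 means were 138 ± 14.0 CPM (SD, n = 3) with PBS, 154 ± 19.1 CPM with rIL-13 and 170 ± 33.2 CPM with rIL-4. The log2 difference between rIL-4 and PBS microglia was 0.32 ± 0.17 (SE, adjusted p = 0.428). Irs2 was at 18.03, 8.66 and 20.2 CPM in rIL-4 macrophages, at 10.0, 9.81 and 7.79 CPM in rIL-13 macrophages and at 12.8, 15.1 and 12.2 CPM in PBS macrophages. The log2 difference between rIL-4 and rIL-13 macrophages was 0.76 ± 0.28 (adjusted p = 0.345), and the low rIL-4 library was that of mouse 9.

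Il4ra varied more between mice than between injections. In macrophages it was at 523, 652 and 494 CPM with PBS, at 422, 1659 and 668 CPM with rIL-13 and at 331, 1310 and 628 CPM with rIL-4. In microglia it was at 143, 240 and 206 CPM with PBS, at 152, 385 and 191 CPM with rIL-13 and at 120, 433 and 243 CPM with rIL-4. The high libraries were those of mouse 6 (rIL-13) and mouse 9 (rIL-4) in both cell types, and the other 7 mice ranged from 331 to 668 CPM in macrophages and from 120 to 243 CPM in microglia. The log2 difference from PBS was 0.44 ± 0.52 (SE) for rIL-4 and 0.72 ± 0.52 for rIL-13 in macrophages, and 0.46 ± 0.47 and 0.31 ± 0.47 in microglia, with adjusted p between 0.534 and above 0.99. Without mouse 9, rIL-4 was below PBS (-0.23 in macrophages and -0.10 in microglia), and without mouse 6, rIL-13 was below PBS (-0.011 and -0.19).

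Because both cell types came from the same cords, the deviation of each mouse from the mean of its injection group could be compared between them. For Il4ra the log2 deviations in microglia and macrophages had a Pearson r of 0.951 over the 9 mice (exact permutation p = 0.00926 within injection groups, two-sided) and a Spearman rho of 0.900 (exact permutation p = 0.0185). Adjusted over the 8 members tested, these p were 0.0741 and 0.148. The other 7 members had r between -0.626 and 0.347, with exact permutation p of at least 0.352. The 2 mice farthest from the median in microglia were then left out for each member. For Il4ra r was 0.907 without mice 8 and 9, but for Il13ra1 it went from -0.174 to 0.872 without the same mice, and for Il2rg from 0.296 to -0.872 without mice 6 and 7. Over so few mice r therefore moved widely for other members, and a difference between Il4ra and them was not tested. The macrophage libraries of mice 6 and 9 also held the most RNA of the 7 monocyte markers, 1934 and 1628 CPM, where the other 7 held 540 to 1098 CPM. In microglia, where Il4ra was also high in these mice, the same markers were at 95.8 CPM in mouse 6 and 178 CPM in mouse 9, within the 52.7 to 248 CPM of the others. In macrophages neutrophil markers were at 2713 CPM in mouse 6 and 653 CPM in mouse 9, and at 142 to 1226 CPM in the others. The sort required F4/80, which the study's methods use to tell macrophages from granulocytes. All 5 neutrophil markers had counts in every macrophage library. The part of such RNA in the Il4ra levels was not tested.

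**Figure D2:**
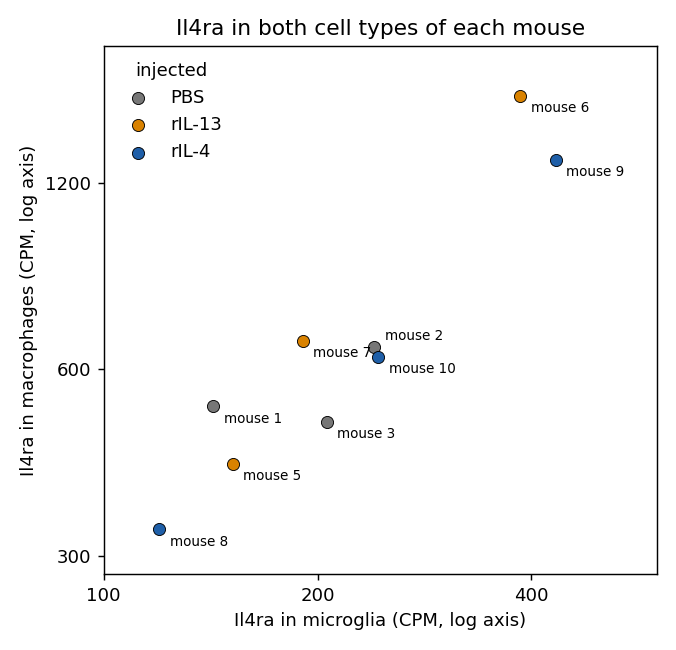
Il4ra in microglia (x axis, CPM, log scale) against Il4ra in macrophages (y axis, CPM, log scale) of the same mouse, with 1 point for each of 9 mice. Mice 6 and 9 lie at 1659 and 1310 CPM in macrophages and at 385 and 433 CPM in microglia, apart from the other 7, and they received different cytokines.

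The type I and type II receptors share Il4ra and differ in the second chain, so the ratio of Il2rg to Il13ra1 per kilobase was taken as a measure of how the 2 chains stood at the RNA level. It does not depend on library scaling, but the side of 1 on which it falls depends on the lengths used. With the longest coding transcript in place of all exons, Il2rg stood above Il13ra1 in PBS microglia of mouse 1 (35.0 against 31.3 CPM per kb). Differences between groups do not depend on the length. In PBS microglia it was 0.781, 0.643 and 0.563, with Il13ra1 above Il2rg in each mouse. In rIL-4 microglia it was 1.57, 3.98 and 2.33, with Il2rg above Il13ra1 in each mouse. In rIL-13 microglia it was 1.21, 0.498 and 1.77, with the mice on both sides of 1. In PBS macrophages the ratio was 1.31, 1.14 and 1.45, in rIL-13 macrophages 1.49, 0.926 and 1.59, and in rIL-4 macrophages 2.98, 1.77 and 2.01. Thus the rIL-4 libraries lay above the PBS libraries without overlap in both cell types, and in macrophages above the rIL-13 libraries too.

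The mean log2 ratio was 1.90 higher in rIL-4 than in PBS microglia (3.72-fold) and 0.77 higher in macrophages (1.70-fold). Each had a p of 0.1 in a two-sided exact permutation test, the smallest that 3 mice against 3 allow. Between rIL-13 and PBS the differences were 0.64 (exact permutation p = 0.4) and 0.01 (p = 1). Over the 3 injections the F statistic was 6.03 in microglia (exact permutation p = 0.0429) and 4.75 in macrophages (exact permutation p = 0.0536), and both adjusted p were 0.180 over the 9 tests of this ratio. In microglia p was 0.0536 to 0.139 without mouse 1, 2, 3, 5, 8, 9 or 10, and 0.168 when Il4ra took the place of Il2rg. In macrophages it was 0.0214, 0.0429 and 0.0464 without mouse 6, 7 and 9.

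Between the cell types the ratio of Il2rg to Il13ra1 was lower in the microglia of 6 of 9 mice. The mean log2 ratio was 0.24 in microglia and 0.63 in macrophages, a difference of -0.39 that did not pass an exact permutation test within injections (p = 0.165, adjusted p = 0.248) or an exact sign-flip test within mice (p = 0.176). The ratio of Il4ra to Il13ra1 did differ. It was lower in the microglia of 8 of 9 mice, by 1.36 on the log2 scale (2.56-fold). The exact permutation test gave p = 0.00375, or 0.0338 adjusted over the 9 tests of this ratio alone. Within mice the exact sign-flip test gave p = 0.00781. No adjustment covered the tests of both ratios together. In PBS libraries the ratio of Il4ra to Il13ra1 was 0.759 to 1.07 in microglia and 2.31 to 2.75 in macrophages.

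The kinases bound to these 2 chains are JAK3 and TYK2. Their ratio was chosen after its values were seen and is given without a test. Per kilobase it was 2.07 to 2.79 in PBS microglia, 1.49 to 1.78 in rIL-13 microglia and 1.02 to 1.70 in rIL-4 microglia. The macrophage values were 1.116 to 1.40 with PBS, 0.682 to 1.60 with rIL-13 and 0.728 to 0.936 with rIL-4. So with rIL-4 the ratio of Jak3 to Tyk2 was lower than with PBS while that of their chains was higher.

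**Figure D3:**
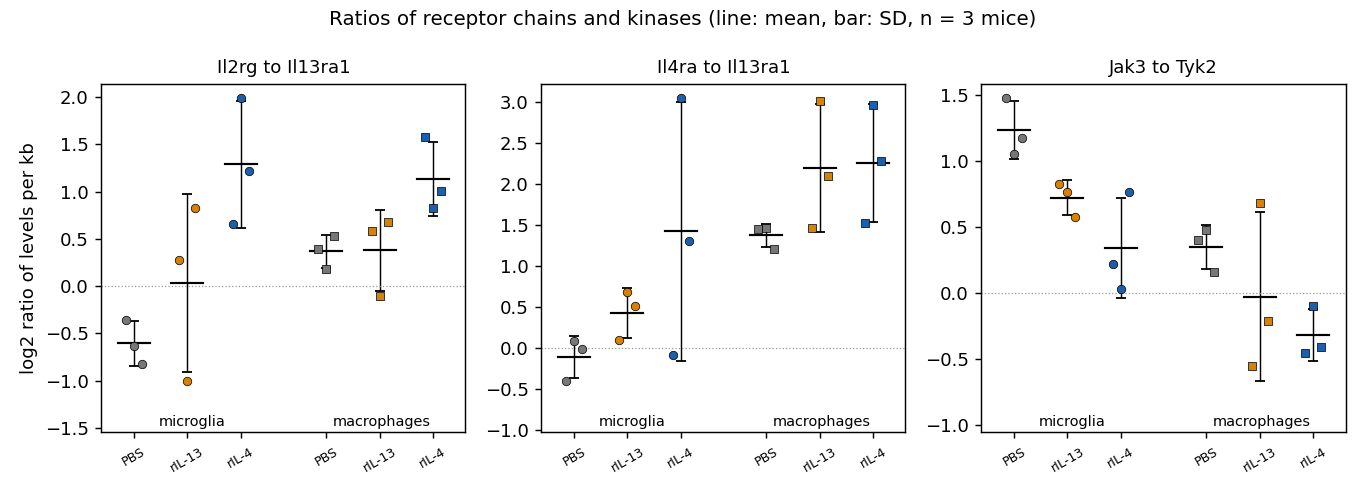
Log2 ratios of levels per kb (y axis) for Il2rg to Il13ra1, Il4ra to Il13ra1 and Jak3 to Tyk2 in every library by cell type and injection. Points are mice, lines are means and bars are SD of 3 mice. The Il2rg to Il13ra1 ratio of rIL-4 libraries lies above 0 in both cell types of all 3 mice, while with the exon lengths used here all 3 PBS microglia libraries lie below 0.

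The larger contrast was between the 2 cell types of the same cords. With PBS, 6 of the 8 members tested were DE between microglia and macrophages, 5 of them lower and 1 higher in microglia, where 40.9% of all genes were DE and 16.3% were lower in microglia. With rIL-13, 3 of the 8 members detected in both cell types were DE, all lower in microglia. Il13ra2 also passed the threshold there, but it had entered the test only through rIL-13 microglia. In this comparison 26.7% of all genes were DE and 9.46% were lower. With rIL-4, 2 of 8 were DE, both lower, where 23.4% of all genes were DE and 9.97% were lower. The median log2 difference of these 8 members was -0.69, -0.52 and -0.51 with PBS, rIL-13 and rIL-4, beside 0.04, 0.04 and -0.03 over all genes. Fewer cells of a type and less RNA per cell cannot be told apart in such sorted bulk samples. Microglia libraries held 217 to 8076 CPM of fibroblast and pericyte markers and macrophage libraries at most 9.64 CPM, and the part of such RNA in these differences was not tested.

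Il4ra was lower in the microglia of all 9 mice. With PBS its mean was 196 ± 49.5 CPM (SD, n = 3) in microglia and 556 ± 84.1 CPM in macrophages, a log2 difference of -1.53 ± 0.20 (SE, adjusted p = 0.000401). With rIL-13 the log2 difference was -1.89 ± 0.56 (adjusted p = 0.0425). With rIL-4 it was -1.48 ± 0.58 (adjusted p = 0.117), and with the mouse as a block it was -1.45 and was called (adjusted p = 0.00107). Within mice the difference ran only from -2.11 to -1.26, so the level of Il4ra varied between mice far more than its difference between the cell types did.

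Stat6 was lower in the microglia of all 9 mice as well. Its log2 difference was -0.94 ± 0.13 (SE, adjusted p = 0.000464) with PBS, -0.82 ± 0.19 (adjusted p = 0.0167) with rIL-13 and -0.72 ± 0.17 (adjusted p = 0.0183) with rIL-4. It was called with each injection. Irs2 showed the widest gap of the genes detected in both cell types, with 3.12 ± 0.914 CPM (SD, n = 3) in microglia and 13.4 ± 1.54 CPM in macrophages after PBS. Its log2 difference was -2.13 ± 0.29 (SE, adjusted p = 0.000509) with PBS, -1.95 ± 0.72 (adjusted p = 0.0868; -3.24 without mouse 7) with rIL-13 and -1.66 ± 0.46 (adjusted p = 0.0344) with rIL-4, where it was not called with the mouse as a block (adjusted p = 0.0554).

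Il2rg was at 54.2 ± 6.64 CPM (SD, n = 3) in PBS microglia and 110 ± 11.8 CPM in PBS macrophages, with a log2 difference of -1.05 ± 0.14 (SE, adjusted p = 0.000462). The Il2rg difference was -0.32 ± 0.26 (adjusted p = 0.426) with rIL-13 and -0.47 ± 0.16 (adjusted p = 0.0699) with rIL-4. Il13ra1, in contrast, was at close levels in both cell types with PBS, 128 ± 11.5 and 132 ± 14.0 CPM (SD, n = 3), with a log2 difference of -0.08 ± 0.12 (SE, adjusted p = 0.662). With rIL-13 the Il13ra1 difference was 0.02 ± 0.26 (adjusted p = 0.966) and with rIL-4 -0.55 ± 0.32 (adjusted p = 0.289). Jak3 was the single member that was higher in microglia with PBS, at 90.7 ± 8.24 against 60.4 ± 9.81 CPM (SD, n = 3), with a log2 difference of 0.55 ± 0.16 (SE, adjusted p = 0.0211). It was higher in the microglia of 8 of 9 mice, all but mouse 6. The log2 difference of Jak3 was -0.01 ± 0.30 with rIL-13 (adjusted p = 0.983; 0.46 without mouse 6) and 0.39 ± 0.18 with rIL-4 (adjusted p = 0.170). Jak1 was lower in microglia by 0.43 ± 0.14 on the log2 scale with PBS (adjusted p = 0.0342) and in all 9 mice. The Jak1 difference was -0.27 ± 0.17 with rIL-13 (adjusted p = 0.302) and -0.47 ± 0.15 with rIL-4 (adjusted p = 0.0547). Tyk2 differed by -0.33 ± 0.15 with PBS (adjusted p = 0.107) and by -0.71 ± 0.22 with rIL-13 (adjusted p = 0.0487) and -0.24 ± 0.19 with rIL-4 (adjusted p = 0.452).

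With PBS, the calls of Il4ra, Stat6, Il2rg and Irs2 were kept without any 1 mouse, but with all 18 libraries in a single model the count was 4 and the call of Il4ra was not kept (adjusted p = 0.0594). The PBS call of Jak1 was not kept without mouse 1 or 3 (log2 difference -0.29 and -0.50), and that of Jak3 without mouse 2 or 3 (0.54 and 0.45) or with all 18 libraries in a single model (adjusted p = 0.0715). With rIL-13, 0 of the 8 members other than Il13ra2 were called without mouse 5 or mouse 7, and the Tyk2 call was not kept without the filter on low counts (adjusted p = 0.0633). With rIL-4, 0 were called without mouse 8, 9 or 10. Within these calls every log2 difference kept its sign.

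**Figure D4:**
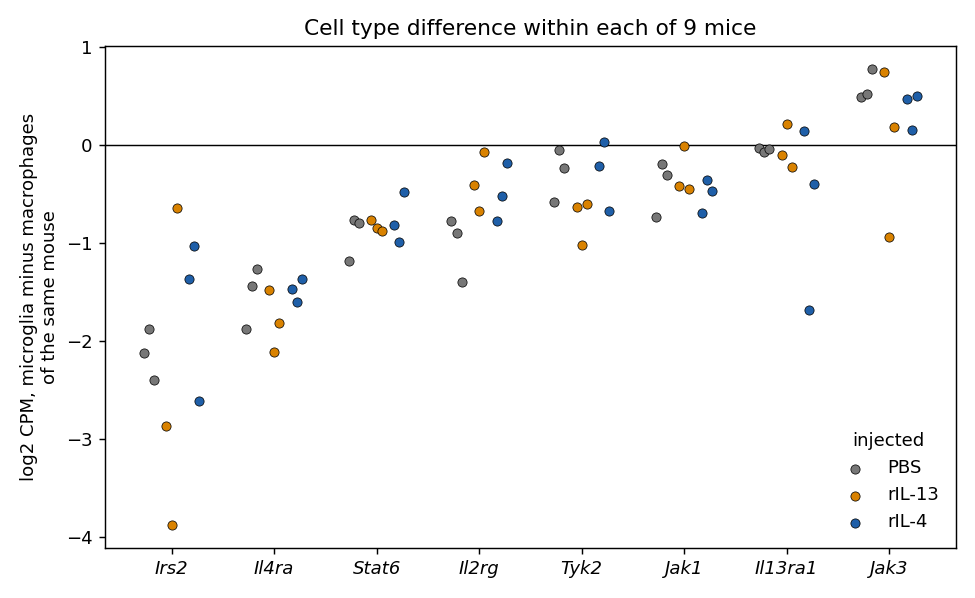
Difference in log2 CPM between microglia and macrophages of the same mouse (y axis) for the 8 members detected in both cell types, with 1 point per mouse, coloured by injection. All 9 points of Il4ra, Stat6, Il2rg, Irs2 and Jak1 lie below 0, and 8 of 9 points of Jak3 lie above it.

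Whether a cytokine acted differently on a member in microglia and in macrophages was tested by the interaction of cell type and injection over all 18 libraries. Il13ra2 had no count in any macrophage library, so its interaction could not be estimated and it is left out of these counts. For rIL-4 against PBS 0 of the 8 other members were called (0.992% of all genes), with 0 below an unadjusted p of 0.05. For rIL-13 against PBS 0 of 8 were called (0.0242%), with 1 below it, Il2rg. Its log2 response was 0.68 ± 0.29 (SE) higher in microglia (adjusted p = 0.758). For rIL-4 against rIL-13 0 of 8 were called (0.139%), with 0 below an unadjusted p of 0.05. DESeq2 called 0 members in each. The lowest adjusted p among the members was 0.508, 0.758 and 0.615 in these comparisons. This model treats the 18 libraries as separate, although each mouse gave 2 of them. With the mouse as a replicate block, 0 members were called in each comparison as well (lowest adjusted p 0.447, 0.816 and 0.664), where 1.14%, 0.0181% and 0.0363% of all genes were called.

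The genes around the members were described from lists of other pathway genes. The ligands Il4 and Il13 were too low to be tested, with at most 2 counts of Il4 in a library and 0 of Il13. Among other JAK genes, Jak2 encodes a kinase that can also serve the type II receptor. In macrophages it rose from 19.2 ± 1.66 CPM (SD, n = 3) with PBS to 113 ± 30.6 CPM with rIL-4 and 68.7 ± 22.3 CPM with rIL-13. Its log2 fold changes were 2.56 ± 0.26 (SE, adjusted p = 0.000247) and 1.84 ± 0.25 (adjusted p = 0.00369). In microglia Jak2 went from 5.06 to 18.5 CPM with PBS to 41.2 to 65.2 CPM with rIL-4, also without overlap, with a log2 difference of 2.24 ± 0.55 (adjusted p = 0.0774). With rIL-13 it was at 11.4 to 38.6 CPM, with a log2 difference of 1.25 ± 0.53 (adjusted p = 0.628).

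Of 14 negative regulators, 4 were higher and 1 lower in rIL-4 microglia than in PBS microglia, and 7 were higher and 1 lower in rIL-4 macrophages. With rIL-13, 1 was higher in microglia and 5 in macrophages. Over all genes the shares called in either direction were 2.22% and 14% with rIL-4 and 0.366% and 4.19% with rIL-13. The median log2 fold change of the list was 0.52 and 0.36 with rIL-4 in microglia and macrophages, and 0.24 and 0.38 with rIL-13. Socs1, a direct inhibitor of JAK kinases, rose from 1.38 ± 0.411 CPM (SD, n = 3) to 20.3 ± 4.84 CPM in microglia with rIL-4, a log2 fold change of 3.90 ± 0.38 (SE, adjusted p = 0.00138), and to 8.99 ± 0.593 CPM with rIL-13. Cish, another member of the SOCS family, rose from 2.25 ± 0.785 CPM (SD, n = 3) to 62.9 ± 40.7 CPM in macrophages with rIL-4, a log2 fold change of 4.796 ± 0.54 (SE, adjusted p = 0.000446). Socs2, Cblb and Dok2 were also higher with rIL-4 in both cell types. The gene lower in microglia was Socs3, another SOCS gene (-0.89 ± 0.17, adjusted p = 0.0282), and that lower in macrophages was Ptpn6, which encodes the phosphatase SHP-1 (-0.55 ± 0.11, adjusted p = 0.0105). Both were named after their values were seen, as was Alox15 in the next list.

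Of 16 genes known as STAT6 targets, 14 were tested in microglia and 15 in macrophages. With rIL-4, 8 were higher in microglia and 14 in macrophages, where 1, the lipoxygenase gene Alox15, was lower (-3.44 ± 0.93, adjusted p = 0.0336). With rIL-13, 6 and 11 were higher. Over all genes, 2.22% in microglia and 14% in macrophages were called in either direction with rIL-4, and 0.366% and 4.19% with rIL-13. Ccl24, an eosinophil chemokine, rose with rIL-4 from 3.91 ± 1.14 to 1295 ± 545 CPM (SD, n = 3) in microglia and from 10.7 ± 4.15 to 4191 ± 2419 CPM in macrophages. Pdcd1lg2, the ligand PD-L2, had 0 counts in PBS microglia. Its level after rIL-4, 24.3 ± 8.83 CPM (SD, n = 3), was at least 353-fold higher, and that after rIL-13, 4.199 ± 2.61 CPM, at least 60.9-fold. The median log2 fold change of the targets was 4.43 with rIL-4 and 3.17 with rIL-13 in microglia, with genes at or under 3 counts in PBS set at their lower bound, and 2.86 and 2.60 in macrophages. These medians cover genes that were not called, such as Egr2 in rIL-13 microglia (0.08 ± 0.51, adjusted p above 0.99) and Alox15 in rIL-4 microglia (0.10 ± 1.39, adjusted p = 0.992), which were named after their values were seen.

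**Figure D5:**
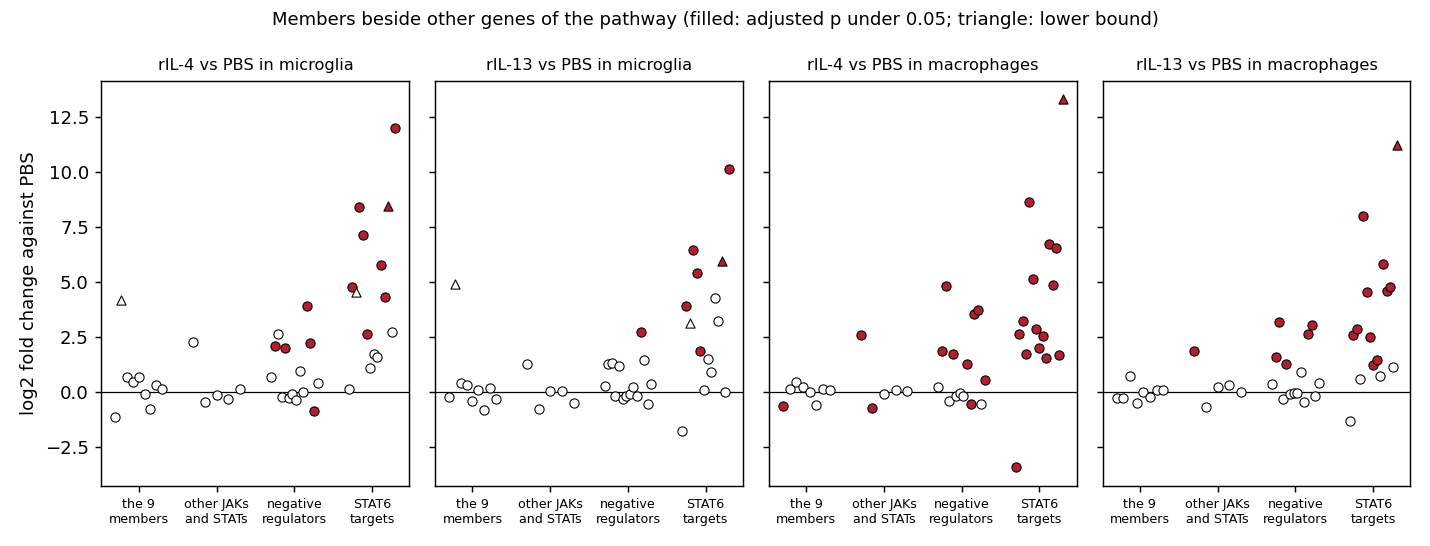
Log2 fold change against PBS (y axis) of each tested gene among the 9 members, other JAK and STAT genes, negative regulators and known STAT6 targets, in 4 panels by cytokine and cell type. Filled points have an adjusted p under 0.05 and triangles are lower bounds. Apart from the open triangle of Il13ra2 in microglia, which with rIL-4 rests on mouse 9, the members lie between -1.14 and 0.72, and Il13ra1 in rIL-4 macrophages is their single filled point. Most filled points are targets and negative regulators.

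Between the cell types with PBS, 3 of the 5 tested receptors related to the gamma chain were lower in microglia and 0 higher, led by Il7r, the IL-7 receptor (-4.60, adjusted p = 2.48e-06). Il7r also fell in macrophages with both cytokines, from 187 ± 20.3 CPM (SD, n = 3) with PBS to 99.6 ± 12.6 CPM with rIL-4 and 97.6 ± 18.4 CPM with rIL-13. With PBS, where 40.9% of all genes were called in either direction, 6 of the 15 genes of the IRS and PI3K-Akt arm were lower and 3 higher in microglia. Of the 5 STAT6 cofactors 2 were lower, where 16.3% of all genes were, and of the 14 negative regulators 7 were lower and 1, Socs2, was higher. In response to rIL-4 the PI3K-Akt arm had 2 genes higher, Akt1 and Shc1, and 1 lower, Inpp5d, of 14 tested in macrophages, where 14% of all genes were called, and 0 of 15 called in microglia, where 2.22% were. Snd1, a coactivator of STAT6, was higher in macrophages with rIL-4 (0.87 ± 0.16, adjusted p = 0.00515) and rIL-13 (0.65 ± 0.16, adjusted p = 0.0484).

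Over the 18 libraries, the genes whose log2 CPM was most like that of Il4ra were Mir22hg (Pearson r = 0.961), Ehd1 (0.957) and Ccl2 (0.944). Those most like Stat6 were Cd36 (0.967), Kcnn4 (0.960) and Fgr (0.957). Those most like Il2rg were Gak (0.903), Slc6a8 (0.895) and Mapkapk3 (0.887). The closest to Il13ra1 was Ddx59 (0.880), so Il13ra1 had no partner as close as those of Il4ra and Stat6. Of the remaining members, the highest r was 0.844 to 0.944. The 18 libraries share 9 mice and fall into 2 cell types, and these values are a description over 16535 genes with no test.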

How the data were processed

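RNA of microglia and macrophages sorted from 9 cords was amplified by SMART-seq2 and sequenced in paired-end mode. Per the labels, the authors mapped reads to GRCm38 with STAR 2.5.3a and quantified genes with RSEM 1.3.0. The deposited values are RSEM's expected counts per gene as whole numbers, not normalized, in which reads shared by several genes are divided between them. The protocol keeps no strand and no molecular identifiers, so counting intervals and floors cover counting error only. Of 53465 gene rows, 50690 had their versioned identifier in GENCODE M21, which gave positions and exon lengths. Totals were 35961305 to 45849829 counts per library.

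Counts were tested with edgeR 4.0.16 (R 4.3.3): TMM normalization, filterByExpr (minimum count 10), quasi-likelihood fits of the 9 libraries of a cell type for the injections, the 6 libraries of an injection for the cell types and all 18 for the interaction, and Benjamini-Hochberg adjustment over all genes tested, with a threshold of 0.05. SEs were derived from the F statistic. Ratios were computed per kb of exon with 0.5 counts added and compared by exact two-sided permutation tests. The procedure was tested on simulated data. Alternatives were DESeq2 1.42.0, its size factors, no filter, other sets of libraries, leaving out each mouse and the mouse as a block. Microglia and macrophages with the same number came from the same mouse, which pairs them by design. The correlation of their deviations over genes was 0.0177 to 0.0935 per mouse. Replicates were separate mice, and no 2 libraries of a group agreed within sampling noise. The members and lists were chosen with earlier results of these data known, so their counts are descriptions. All 9 members were tested wherever they passed the filter. The result for 1 pathway gene is not reported here. Of the other pathway genes, those past the threshold were counted, and the text named from the 4 with the largest absolute log2 fold change per role and comparison. Closest genes were ranked by Pearson r of log2 CPM with a prior count of 2. The Jak3 to Tyk2 ratio and the fits without mice 6 and 9 were chosen after seeing the data. The annotation release that the authors counted on is not given in the sources used here.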

Additional observations from a re-analysis of the deposited data

How the results depend on the processing

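Of 476 recomputed member differences, 420 kept their direction and their side of the threshold, 27 lost and 15 gained a call, and 14 changed direction. Of those, 8 were Il4ra against PBS, and 6 were Il13ra1 and Jak3 between cell types with rIL-13, both near 0. Il13ra1 was -0.0041 without the filter, -0.00033 with all 18 libraries, -0.020 with the replicate block and -0.17 to 0.12 without a mouse, and Jak3 was 0.020 with the block and -0.39 to 0.46 without a mouse. Without mice 6 and 9, chosen after seeing the data, the log2 difference of Il4ra was -0.094 (rIL-4) and -0.19 (rIL-13) in microglia and -0.22 and -0.011 in macrophages. Leaving out each mouse in turn gave -0.10 to 0.81 and -0.19 to 0.55 in microglia, and -0.23 to 0.81 and -0.011 to 1.07 in macrophages. The cause was not tested.

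The count of members called for rIL-4 against PBS in microglia was 0, but 3 with DESeq2, 1 with only the 6 libraries compared and 2 with all 18 in a single model, and 0 to 1 without a mouse. Over all genes the counts called were 345, 1215 with DESeq2, 418 with the 6 libraries and 949 with all 18. For rIL-13 against PBS in microglia DESeq2 called 2, where all genes went from 57 to 322. Without Il13ra2 these DESeq2 counts were 2 and 1. For rIL-4 against PBS in macrophages the count of 1 was 2 with the 6 libraries compared, 0 with all 18, 2 without mice 6 and 9, and 0 to 2 without a mouse, where over all genes 1900 were called, 1927 with the 6 libraries, 1053 with all 18 and 2486 without mice 6 and 9. For microglia against macrophages the count was 4 to 5 without a mouse with PBS, 0 to 4 with rIL-13 and 0 to 0 with rIL-4, where all 18 libraries gave 4, Il13ra2 included, and the count over all genes went from 3174 to 4569. With the mouse as a replicate block these counts, Il13ra2 included, were 6, 4 and 2. With rIL-4 the block called Il4ra and Stat6 where the fit without it called Stat6 and Irs2, and among the differences printed it changed no other call.

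The F of the Il2rg to Il13ra1 ratio over injections was 2.06 in microglia with Il4ra in place of Il2rg, and 3.51 to 11.7 without a mouse. In macrophages it was 2.48 to 6.11 without a mouse and 9.28 without mice 6 and 9. The macrophage difference between rIL-13 and PBS was -0.13 to 0.26 without a mouse. The difference between cell types was -0.56 to -0.21 without a mouse and -1.36 with Il4ra, and it was -0.39 in the test with the replicate block. A pseudocount of 5 changed no call. With the longest coding transcript as length, 9 of 18 mean levels per kb moved by over 1 SD. Depth limits only Il13ra2 and Irs2, since the lowest count of the other members in any library was 1098.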
